A study of Arabidopsis thaliana with 4 samples.

Results

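The aquaporin family of Arabidopsis thaliana was followed through a 4 h ethylene treatment of dark-grown seedlings. The family was taken as the 35 loci of the standard nomenclature, and each was read from the row of the deposited gene table that names it. All 35 were found, each in a row naming that locus alone, among 33538 rows in all. There were 13 plasma membrane intrinsic proteins (5 PIP1 and 8 PIP2), 10 tonoplast intrinsic proteins (TIP), 9 NOD26-like intrinsic proteins (NIP) and 3 small basic intrinsic proteins (SIP). Members were taken by name, and where a locus had several rows, which held for NIP2;1 alone, the row with the highest mean FPKM was used.

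Aquaporins are membrane channels that let water cross faster than the lipid bilayer allows, and many also pass small neutral solutes such as hydrogen peroxide, urea, ammonia or boric acid. PIPs sit mainly in the plasma membrane, TIPs in the membrane of the vacuole and SIPs in the endoplasmic reticulum. Dark-grown seedlings lengthen by water uptake into expanding cells, and ethylene, a gaseous hormone, shortens and thickens them.

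Seedlings given ethylene came from 2 libraries and seedlings kept in air from 2 others. Every library was made from a srt1srt2 double mutant in the Col background, which is mutant in a pair of sirtuin histone deacetylase genes, and the labels name no alleles. Seedlings were 3 days old, grown in darkness at 24 °C, and were then given either hydrocarbon-free air with 10 ppm ethylene or that air alone. Wild-type seedlings were not analysed here, so whether the response depends on the genotype was not tested. The title inside the deposited table names SRT1 alone, whereas the labels name both genes and were followed. SRT1 was at 3.23 FPKM in ethylene and 3.88 in air, and SRT2 at 2.09 in ethylene and 1.92 in air, which does not check the genotype without a wild type.

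Levels are given as FPKM, a count of fragments divided by transcript length and by sequencing total, which can be compared between genes because they are per length. The authors pooled both libraries of a condition into 1 value, so no spread between libraries can be shown and the depth is unknown. A gene is called here, and is said to have risen or fallen, where the authors' deposited table gives a Cuffdiff q-value of 0.05 or less. Standard errors (SE) are those of the log2 ratio of ethylene to air, taken as the ratio divided by the deposited test statistic. The RNA came from whole seedlings, so fewer cells of a type and less RNA per cell cannot be told apart.

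Most calls fell among plasma membrane aquaporins, and most were downward. Of the 35 genes, 31 were tested, and 14 were called, 10 lower and 4 higher in ethylene. That is 45.2% of the tested members, beside 11.3% of the 20786 tested rows that name a gene, of which 6.5% were called lower and 4.79% higher. When the deposited test statistic was instead read against a normal distribution, here the normal reference, 10 aquaporins were called lower and 2 higher, beside 5.78% of all rows (3.2% lower and 2.57% higher). Calls are more frequent at high levels. Of the 1819 rows at 100 FPKM or more in either condition, 27.6% were called, 15.9% lower and 11.7% higher. At that level stood 16 aquaporins besides NIP2;1, of which 10 were called, 8 lower and 2 higher. The smallest q in the authors' deposited table, 0.000878, was shared by 12 of the 14 called aquaporins. The median change of the 31 tested members, on the log2 scale with 1 FPKM added to both values, was -0.26, beside 0.0078 for all tested rows. Without NIP2;1, left out after seeing the data, the median was -0.31.

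**Figure D1:**
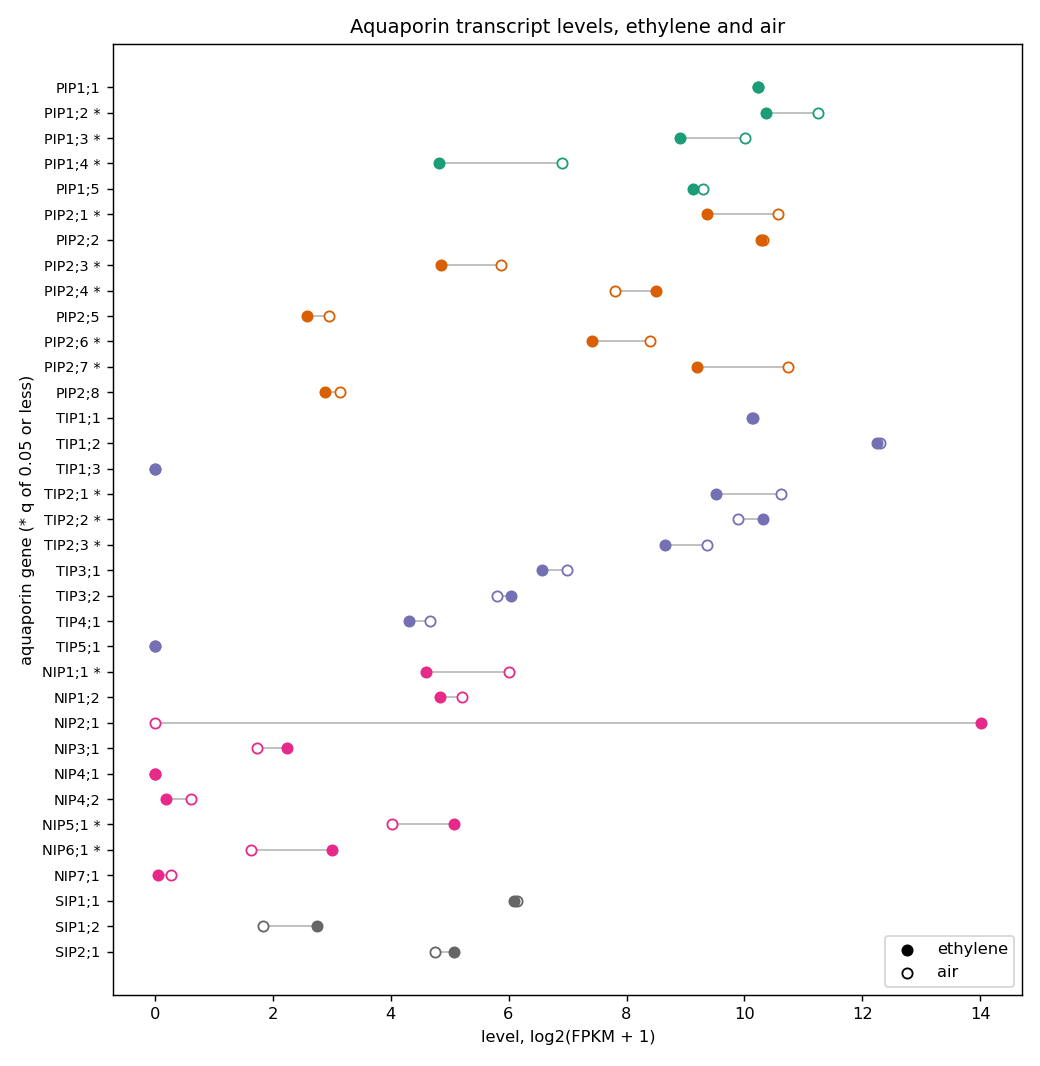
Level of each of the 35 aquaporins as log2(FPKM + 1) in ethylene (filled) and in air (open), 1 pooled value per condition, with an asterisk for a q of 0.05 or less. Most PIP pairs lie with the ethylene value to the left. The row used for NIP2;1, listed at 16518 FPKM in ethylene and at 0 in air, stands far from the rest.

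Exact sequence matches show where some of these values could be blurred by shared reads. Coding sequences were taken from the RefSeq annotation of TAIR10.1, the build of all gene coordinates given here. Every 50-base window was looked for elsewhere in the nuclear genome and in the other members. Only exact matches were counted, and untranslated ends and shorter reads were not covered, so genes without a match may still share reads. In 29 of the 35 genes no window was found elsewhere. The exceptions with most overlap are a tandem pair on chromosome 2, PIP2;2 (AT2G37170) and PIP2;3 (AT2G37180), whose coding sequences are 94.8% identical over 858 aligned bases. These genes lie 2612 bases apart, and 27.1% of the windows of the first and 31.4% of the second occur elsewhere, with an identical run of 242 bases. The 90-base stretch below is where they differ most, and capitals mark the 12 differing bases.
PIP2;2 coding bases 532 to 621: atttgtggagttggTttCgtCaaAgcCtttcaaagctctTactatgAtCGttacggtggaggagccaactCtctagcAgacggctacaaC
PIP2;3 coding bases 403 to 492: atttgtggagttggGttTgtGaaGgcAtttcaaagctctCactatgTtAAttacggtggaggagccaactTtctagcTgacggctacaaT
How the authors' counting split reads of such pairs is not given in the sources used here, so the values of both genes are uncertain.

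The upstream sequences of the gene that fell most, of the PIP2 gene that fell most and of the gene that rose most are shown because these 3 stand at the ends of the response. Each is the 250 bases before the annotated gene start in TAIR10.1, written 5′ to 3′ on the gene's own strand. Capitals mark ATGTA or its reverse complement TACAT, letters found in many binding sites of EIN3, the transcription factor at the end of the ethylene signalling chain.
PIP1;4 (chr4:187681-187930, minus strand): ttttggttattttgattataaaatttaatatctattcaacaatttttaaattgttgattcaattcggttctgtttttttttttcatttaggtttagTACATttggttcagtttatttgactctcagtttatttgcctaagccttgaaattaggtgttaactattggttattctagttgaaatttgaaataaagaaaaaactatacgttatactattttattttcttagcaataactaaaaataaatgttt
PIP2;7 (chr4:16708111-16708360, plus strand): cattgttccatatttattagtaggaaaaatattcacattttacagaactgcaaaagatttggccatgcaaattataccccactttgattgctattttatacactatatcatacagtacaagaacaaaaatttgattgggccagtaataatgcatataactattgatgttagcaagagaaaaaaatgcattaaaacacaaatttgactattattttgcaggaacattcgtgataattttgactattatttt
NIP6;1 (chr1:30352209-30352458, minus strand): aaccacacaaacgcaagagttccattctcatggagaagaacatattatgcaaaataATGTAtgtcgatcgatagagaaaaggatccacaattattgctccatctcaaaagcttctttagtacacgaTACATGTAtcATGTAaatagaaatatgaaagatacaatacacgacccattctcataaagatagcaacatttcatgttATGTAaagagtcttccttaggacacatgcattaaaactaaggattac
Those letters, on either strand, were present in 25 of the 35 aquaporin windows and in 52.0% of the windows of all 27444 protein-coding genes. They were in 8 of the 10 genes that fell, in 2 of the 4 that rose and in 15 of the other 21. The GCC box GCCGCC (reverse complement GGCGGC), bound by ethylene response factors, was in 1 aquaporin window, of a gene that was not called, and in 1.87% of all. The G-box CACGTG was in 0 aquaporin windows and 6.49% of all. The shorter ACGTG (reverse complement CACGT), which every G-box contains, was in 4 windows, 0 of them of called genes, and in 22.9% of all. Such matches are a description of these windows only.

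Among PIP1 genes, which often need a PIP2 partner to reach the plasma membrane, 3 of 5 fell and none rose. The share called lower was 6.5% of all tested rows naming a gene and 15.9% of those at 100 FPKM or more. The largest fall was that of PIP1;4 (AT4G00430, chromosome 4, 185285 to 187680), a channel for water that also passes carbon dioxide and hydrogen peroxide. It stood at 27.2 FPKM in ethylene and 119 in air, 4.38-fold lower, with a log2 ratio of -2.13 (SE 0.23). This gene has the lowest level of the 5 in both conditions. PIP1;2 (AT2G45960, chromosome 2, 18910081 to 18911982), known for its part in root and leaf water transport, was at 1316 FPKM in ethylene and 2425 in air, a log2 ratio of -0.88 (SE 0.22). It was the highest of the 13 PIP genes in both conditions. PIP1;3 (AT1G01620, chromosome 1, 225665 to 227543) was at 479 FPKM in ethylene and 1035 in air, a log2 ratio of -1.11 (SE 0.21).

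The remaining PIP1 genes did not pass the test. PIP1;1 (AT3G61430) was at 1204 FPKM in ethylene and 1193 in air, a log2 ratio of 0.01 (SE 0.21) with a q of 0.978 in the authors' deposited table. PIP1;5 (AT4G23400) was at 560.5 FPKM in ethylene and 631 in air, a log2 ratio of -0.17 (SE 0.20) with a q of 0.584 in the authors' deposited table. The 5 genes summed to 3587 FPKM in ethylene and 5403 in air, a ratio of 0.664, and AT2G45960 made up 36.7% of the sum in ethylene and 44.9% in air. The share of AT3G61430 was 33.6% in ethylene and 22.1% in air.

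PIP2 proteins are the stronger water channels of the plasma membrane when tested alone, and here 4 of 8 fell and 1 rose. Over all tested rows naming a gene 6.5% were called lower and 4.79% higher, and at 100 FPKM or more 15.9% and 11.7%. PIP2;7 (AT4G35100, chromosome 4, 16708361 to 16710407) was at 587 FPKM in ethylene and 1715 in air, 2.92-fold lower, with a log2 ratio of -1.55 (SE 0.21). It was the highest PIP2 gene in air but not in ethylene. PIP2;1 (AT3G53420, chromosome 3, 19803473 to 19805730), a channel of roots and guard cells whose trafficking is well studied, was at 661 FPKM in ethylene and 1511 in air, a log2 ratio of -1.19 (SE 0.23). Its row covers a span with 15 other loci, all at 28.8 FPKM or less in ethylene and in air. PIP2;6 (AT2G39010, chromosome 2, 16291280 to 16294101) was at 170.3 FPKM in ethylene and 338 in air, a log2 ratio of -0.99 (SE 0.21).

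The tandem pair differed in level and in call. AT2G37180, also known as RD28 for its response to drying, fell to 28.0 FPKM in ethylene, against 57.5 in air, a log2 ratio of -1.04 (SE 0.24). Its neighbour AT2G37170 was at 1242 FPKM in ethylene and 1271 in air, a log2 ratio of -0.03 (SE 0.26), and was not called, with a q of 0.960 in the authors' deposited table. Whether the changes of the neighbours differ from each other was not tested. The neighbour was the highest PIP2 gene in ethylene, with 40.6% of the PIP2 sum in ethylene and 24.8% in air.

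The PIP2 gene that rose was PIP2;4 (AT5G60660, chromosome 5, 24375368 to 24377206), a channel that also passes hydrogen peroxide. It stood at 361 FPKM in ethylene and 223 in air, 1.62-fold higher, with a log2 ratio of 0.70 (SE 0.20). Its share of the PIP2 sum was 11.8% in ethylene and 4.34% in air. PIP2;5 (AT3G54820) and PIP2;8 (AT2G16850) were low and not called. The first was at 5.01 FPKM in ethylene and 6.79 in air, the second at 6.38 in ethylene and 7.85 in air, and their q values in the authors' deposited table were 0.436 and 0.614.

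The 8 PIP2 genes summed to 3061 FPKM in ethylene and 5129 in air, a ratio of 0.597. All 13 PIP genes together summed to 6647 FPKM in ethylene and 10532 in air, a ratio of 0.631, with 7 genes lower and 1 higher. Values of the 13 ran lower in ethylene for 11 genes, called or not.

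**Figure D2:**
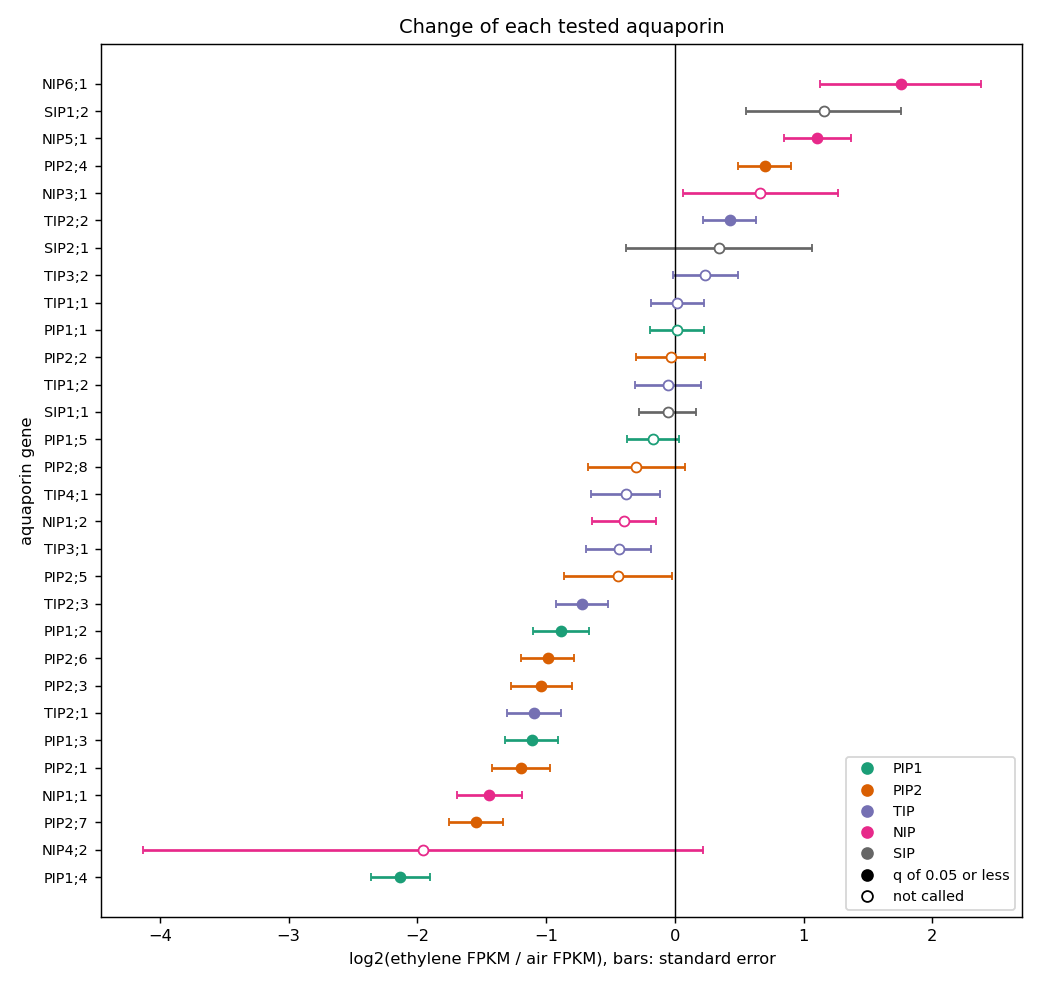
Log2 ratio of ethylene to air FPKM for the 30 tested aquaporins with a value above 0 in both conditions, in order of size, with bars of 1 SE and filled points for a q of 0.05 or less. PIP genes fill most of the lower part, and the filled points above 0 are 2 NIP genes, 1 PIP2 gene and 1 TIP gene.

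Tonoplast aquaporins let water and small solutes exchange with the vacuole, which fills most of an expanding cell. Of 10 TIP genes 8 were tested, 2 fell and 1 rose. Calls lower and higher were 6.5% and 4.79% of all tested rows naming a gene, and 15.9% and 11.7% at 100 FPKM or more. TIP1;2 (AT3G26520, chromosome 3, 9722443 to 9723904) was the highest aquaporin once NIP2;1, whose value is uncertain, was set aside. It was at 4876 FPKM in ethylene and 5060.2 in air, ninth among all rows that name a gene in both conditions. Its log2 ratio was -0.05 (SE 0.26) and its q 0.926 in the authors' deposited table. TIP1;1 (AT2G36830), the gamma-TIP of large vacuoles, was at 1128 FPKM in ethylene and 1114 in air, a log2 ratio of 0.02 (SE 0.21) and a q of 0.973 in the authors' deposited table. AT3G26520 alone made up 56.8% of the TIP sum in ethylene and 53.0% in air.

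The delta-TIP group, TIP2 genes that also carry ammonia, moved in both directions. TIP2;1 (AT3G16240, chromosome 3, 5505360 to 5507050) was at 732 FPKM in ethylene and 1565 in air, 2.14-fold lower, with a log2 ratio of -1.10 (SE 0.21). Its span also holds AT3G16250, at 8.87 FPKM in ethylene and 10.6 in air. TIP2;3 (AT5G47450, chromosome 5, 19248249 to 19249622) was at 401 FPKM in ethylene and 662 in air, a log2 ratio of -0.72 (SE 0.20). TIP2;2 (AT4G17340, chromosome 4, 9698940 to 9700472) was at 1269 FPKM in ethylene and 944 in air, a log2 ratio of 0.43 (SE 0.21), and its q of 0.0301 in the authors' deposited table is the largest among the called genes. Its call was lost under the normal reference (q 0.348), at a q of 0.01, and with a minimum of 1.5-fold. In air the order of the group was AT3G16240, AT4G17340, AT5G47450, and in ethylene AT4G17340 stood first.

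Seed vacuoles carry TIP3 proteins, which remain in seedlings while storage reserves are used up. TIP3;1 (AT1G73190, alpha-TIP) was at 93.4 FPKM in ethylene and 127 in air, with a q of 0.0881 in the authors' deposited table. TIP3;2 (AT1G17810, annotated as beta-TIP) was at 64.9 FPKM in ethylene and 55.1 in air, with a q of 0.520 in the authors' deposited table. Seed maturation markers were present as well. Of 9, the 2S albumins SESA1, SESA2 and SESA3 rose, and OLEO1, OLEO2, EM1 and EM6 fell. OLEO1 was not called under the normal reference. The 7 calls are 77.8% of the list, beside 11.3% of all tested rows naming a gene. SESA3 was at 24.1 FPKM in ethylene and 1.36 in air, and EM1 at 52.7 in ethylene and 222 in air. The 9 markers summed to 826 FPKM in ethylene and 1281 in air. Within that sum SESA1 to SESA4 came to 51.6 FPKM in ethylene and 3.57 in air, and the other 5 markers to 775 in ethylene and 1278 in air. Of those 5, CRA1, which was not called, was at 447 FPKM in ethylene and 542 in air. No marker was at 0, and their part in the TIP3 values was not tested.

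TIP4;1 (AT2G25810), a vacuolar channel of roots, was at 18.8 FPKM in ethylene and 24.5 in air, with a q of 0.227 in the authors' deposited table. TIP1;3 (AT4G01470) and TIP5;1 (AT3G47440), both known from pollen, were listed at 0 in both conditions and not tested. Pollen markers were likewise near 0, with 7 genes summing to 1.58 FPKM in ethylene and 1.97 in air, of which VGDH1 and PPME1 were at 0 in both. The highest of them, ANX1, was at 1.23 FPKM in ethylene and 1.60 in air and was not called. The 10 TIP genes summed to 8583 FPKM in ethylene and 9551 in air, a ratio of 0.899.

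**Figure D3:**
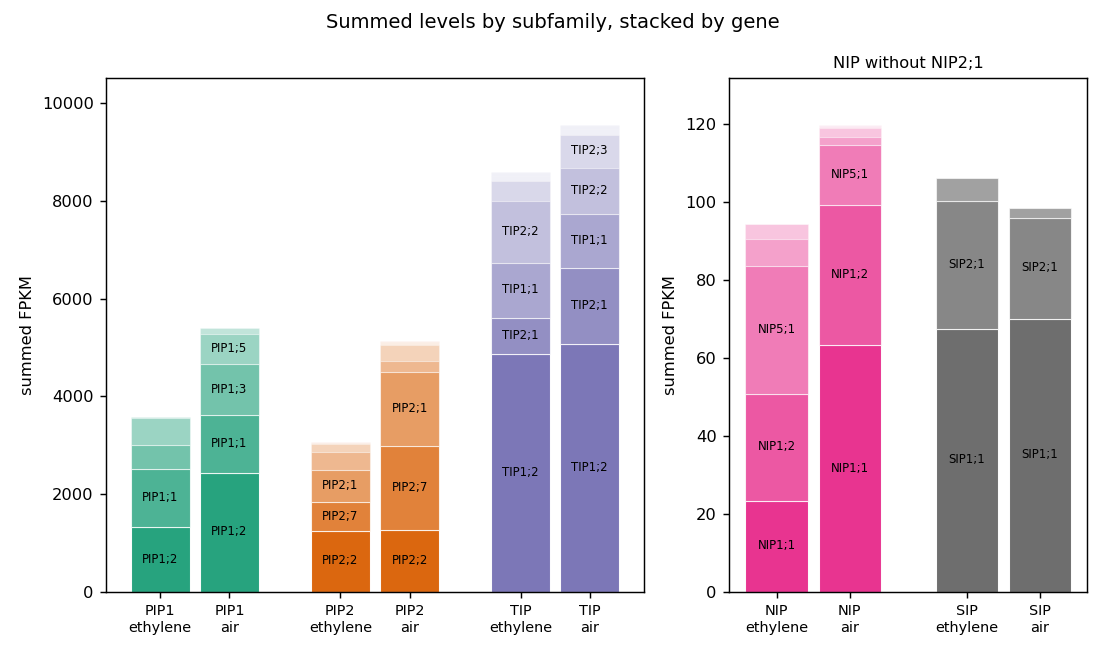
Summed FPKM of each subfamily in ethylene (left bar of a pair) and in air (right bar), stacked by gene, on linear axes from 0. NIP2;1 is left out of the NIP bars. NIP and SIP have their own panel and scale, so their bar heights cannot be compared with those of PIP1, PIP2 and TIP. The PIP1 bars reach 3587 and 5403, the PIP2 bars 3061 and 5129, the TIP bars 8583 and 9551, the NIP bars 94.4 and 119.7 and the SIP bars 106 and 98.5.

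Among 7 tested NIP genes, 2 rose and 1 fell, beside 4.79% called higher and 6.5% lower of all tested rows naming a gene. The 2 NIP genes that rose both encode boric acid channels. NIP5;1 (AT4G10380, chromosome 4, 6431161 to 6435396), the channel for boric acid uptake into roots when boron is scarce, was at 32.7 FPKM in ethylene and 15.2 in air, 2.15-fold higher, with a log2 ratio of 1.11 (SE 0.26). NIP6;1 (AT1G80760, chromosome 1, 30350539 to 30352208), which passes boric acid to young shoot tissue, was at 7.04 FPKM in ethylene and 2.09 in air, 3.37-fold higher, with a log2 ratio of 1.75 (SE 0.62) and a q of 0.00878 in the authors' deposited table. Its call was lost with the normal reference (q 0.0749). Its row shares a span with AT1G80750, which was at 23.1 FPKM in ethylene and 26.9 in air and was not called.

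Boron exporters of the BOR family act beside these channels in moving boron through the plant. Of 7 listed loci 4 were tested, 2 were higher and 1 lower. Among all tested rows naming a gene, 4.79% were called higher and 6.5% lower. BOR1, which loads boron into the xylem, was at 54.9 FPKM in ethylene and 23.9 in air, 2.29-fold higher. BOR2, its close relative, was at 35.2 FPKM in ethylene and 25.5 in air, and BOR4, an exporter linked to tolerance of high boron, was at 1.12 in ethylene and 2.58 in air. With the normal reference, of these 3 calls only that of BOR1 remained.

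NIP1;1 (AT4G19030, chromosome 4, 10421521 to 10423508), a channel that also admits arsenite, was the NIP gene that fell. It stood at 23.3 FPKM in ethylene and 63.2 in air, 2.72-fold lower, with a log2 ratio of -1.44 (SE 0.25). Its near neighbour on chromosome 4, NIP1;2 (AT4G18910), was at 27.5 FPKM in ethylene and 36.1 in air, a log2 ratio of -0.39 (SE 0.25) and a q of 0.150 in the authors' deposited table. Leaving out NIP2;1, the NIP sum was 94.4 FPKM in ethylene and 119.7 in air, a ratio of 0.789. Within that sum AT4G19030 led in air with 52.8%, against 24.6% in ethylene, while AT4G10380 held 34.7% in ethylene and 12.7% in air.

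NIP2;1 (AT2G34390, chromosome 2, 14514487 to 14515988), a lactic acid channel induced by low oxygen, shares its span with AT2G34380, at 4.83 FPKM in ethylene and 6.80 in air. The NIP2;1 locus has 3 rows in that span. The row with the highest mean was listed at 16518 FPKM in ethylene and at 0 in air, the second value from the top among all rows naming a gene in ethylene, and it was not called, with a q of 0.525 in the authors' deposited table. The other rows were at 1.57 FPKM in ethylene and 3.61 in air and at 1.06 in ethylene and 0.531 in air, with q values of 0.876 and 0.581 in the authors' deposited table. The annotation places an antisense RNA over this gene, the strand setting is not given in the sources used here, and 11.6% of its coding windows occur elsewhere. NIP2;1 lies on the minus strand, yet its highest row is numbered among those of plus-strand members of chromosome 2. Its row at 1.06 FPKM in ethylene is numbered near that of the minus-strand PIP2;2. Whether the highest row counts transcripts of NIP2;1 was not tested. No direction is therefore read from NIP2;1. A sum that includes it is given only in the closing section, beside the sum without it.

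The other NIP genes were not called. NIP3;1 (AT1G31885), which also admits arsenite, was at 3.71 FPKM in ethylene and 2.34 in air, with a q of 0.398 in the authors' deposited table. NIP4;2 (AT5G37820) was at 0.137 in ethylene and 0.534 in air, with a q of 0.567 in the authors' deposited table, and its tandem neighbour NIP4;1 (AT5G37810) was listed at 0 in both. NIP7;1 (AT3G06100), the boric acid channel of anthers, was at 0.0444 FPKM in ethylene and 0.217 in air and was not tested.

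None of the 3 SIP genes was called in the authors' Cuffdiff test, with 1 at an unadjusted p of 0.05 or less. Of all tested rows naming a gene, 11.3% were called. SIP1;1 (AT3G04090) was at 67.3 FPKM in ethylene and 69.9 in air, a log2 ratio of -0.06 (SE 0.22). SIP2;1 (AT3G56950) was at 32.9 FPKM in ethylene and 25.9 in air, with an SE of 0.72 on a log2 ratio of 0.34. Its span also holds AT3G56940, at 231 FPKM in ethylene and 256 in air. SIP1;2 (AT5G18290) was at 5.76 FPKM in ethylene and 2.59 in air, with a q of 0.0833 in the authors' deposited table. It shares its span with AT5G18300, at 7.68 FPKM in ethylene and 2.56 in air, and for both pairs overlapping reads may not be separable. With the normal reference 0 of the 3 were called.

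**Figure D4:**
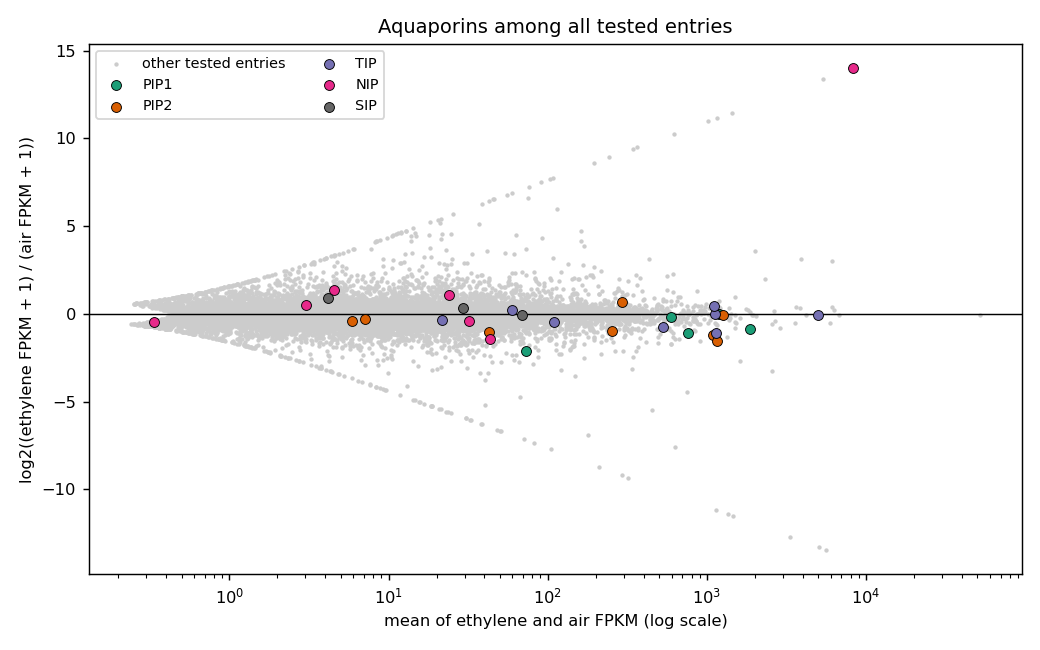
Change, as log2((ethylene FPKM + 1)/(air FPKM + 1)), against the mean of both FPKM values on a log axis, for every tested row naming a gene (grey) and the 31 tested aquaporins (coloured by subfamily). Several PIP genes near 1000 FPKM lie below the 10th percentile of all rows, which is -0.58, and the NIP point at the upper right is the row listed at 0 in air.

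Some of the genes that handle PIP proteins were called. Of 10 genes listed for PIP trafficking and turnover, 2 rose and 1 fell, beside calls in 11.3% of all tested rows naming a gene. RMA1 and RMA3, membrane-anchored ubiquitin ligases of a group known to hold back PIP2 trafficking, were at 37.6 and 38.7 FPKM in ethylene and at 19.5 and 23.6 in air. The RMA1 row also names AT4G03505, so that value belongs to both. TSPO, a membrane protein that binds PIP2;7 and directs it to degradation, was at 113 FPKM in ethylene and 236 in air, a log2 ratio of -1.07 (SE 0.21). The syntaxins SYP121 and SYP61, which bring PIP2 proteins to the plasma membrane, were at 36.9 and 35.7 FPKM in ethylene and at 34.6 and 33.5 in air, and neither was called. The call of RMA3 was lost with the normal reference.

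Vacuolar proton pumps energise the membrane in which TIPs sit, and 1 of 23 listed loci was called, lower. That gene was VHA-E3, at 91.7 FPKM in ethylene and 137 in air, and under the normal reference it was not called. Calls were made in 11.3% of all tested rows naming a gene and in 27.6% of those at 100 FPKM or more. The list summed to 4074 FPKM in ethylene and 3958 in air, and its median change was 0.04 on the log2 scale with 1 FPKM added.

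All 7 root hair markers rose, summing to 159.8 FPKM in ethylene and 73.5 in air, and none was at 0. Of all tested rows naming a gene, 4.79% were called higher. The list, like the others, was chosen with earlier results of these data known, so its count is a description only. PRP1, a wall protein of root hairs, was at 34.0 FPKM in ethylene and 6.90 in air. The expansin genes EXPA7 and EXPA18 followed by size of change, with EXPA7 at 27.1 FPKM in ethylene and 10.8 in air and EXPA18 at 18.0 in ethylene and 7.50 in air. With the normal reference 4 of the 7 were called. Among 7 markers of root endodermis, MYB36 rose and CASP5 fell, neither called under the normal reference. Those 2 calls are 28.6% of the list, beside 11.3% of all tested rows and 27.6% of those at 100 FPKM or more. The list summed to 1101 FPKM in ethylene and 1023 in air. The part of these markers in the aquaporin values was not tested.

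**Figure D5:**
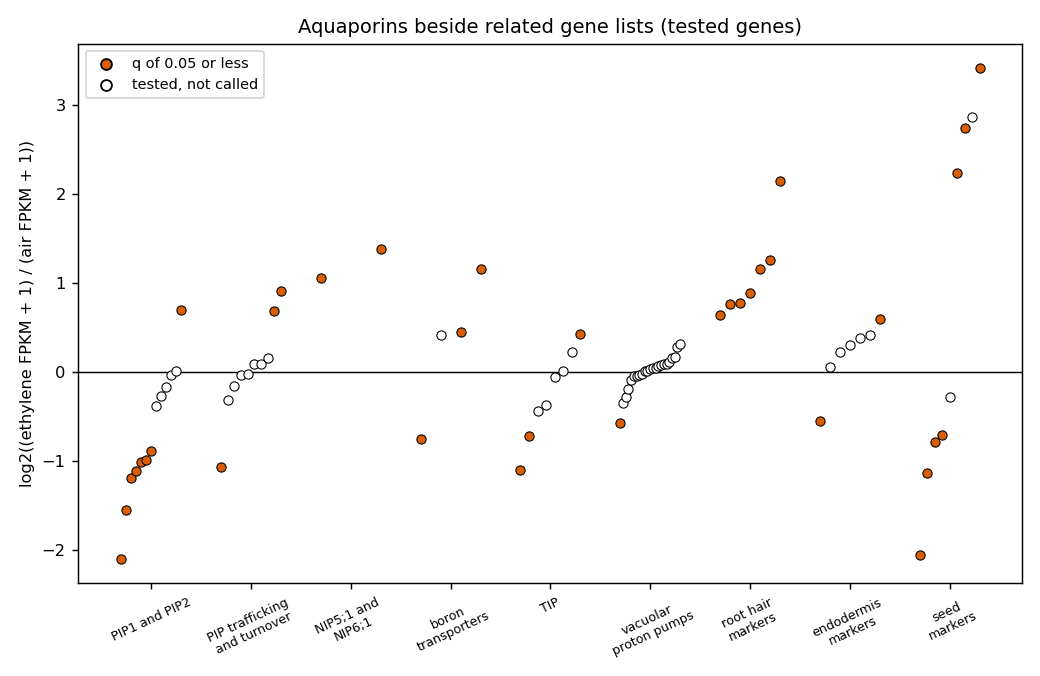
Change on the log2 scale with 1 FPKM added for tested genes of the aquaporin groups and of the related lists, filled where the q is 0.05 or less. PIP points reach down to -2.09, all 7 root hair markers lie above 0, and the vacuolar proton pumps lie between -0.57 and 0.32.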

How the data were processed

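RNA sequencing of 4 libraries, 2 of ethylene-treated and 2 of air-treated seedlings, was processed by the authors with TopHat2 2.0.9 and Cuffdiff 2.2.1 on TAIR10, per the submitters' processing notes. Per the file headers, the authors' deposited table holds 1 pooled FPKM value per condition, a p-value and q-value per row, and a test statistic (score). The sources used here state neither parameters nor strand setting.

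From these values, ratios, sums and SE were computed in Python 3.11.15 with pandas 2.3.3. The deposited q equals Benjamini-Hochberg adjustment over 21076 tested rows to within 5.25e-07. Normal quantiles of the deposited p-values exceeded the statistic by a median factor of 1.43, so the statistic was also read against a standard normal distribution. The adjustment of p-values and the normal-reference calls were tested on simulated statistics, and the choice of rows on a small made-up example. Rows naming no gene numbered 324 and held 22.8% of summed FPKM in ethylene and 24.0% in air. The SE uses the statistic and is thus the wider reading. Whether the 2 libraries of a condition came from separate plants is not stated, so the deposited p-values may measure technical spread only.

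Sequences come from RefSeq TAIR10.1. Of 21026 single-gene rows compared, 100% overlapped the annotated gene of the same locus, and 40.9% shared its start or its end. Rows sharing their span with another single-gene row were not compared. The members, lists and motifs were chosen with earlier results of these data known. Named are all 35 members, and of each list the called genes, at most 3 by size of change, or the highest gene where none was called. The syntaxins and the genes sharing a span were named after their values were seen, as were the remaining seed markers and the pollen markers at 0.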

Additional observations from a re-analysis of the deposited data

How the results depend on the processing

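The count of aquaporins that fell was 10 with the normal reference and with p adjusted over rows at 1 FPKM or more. It was also 10 at a q of 0.01 and with a minimum of 1.5-fold. Using only rows naming the locus alone could change no count, because all 35 members were already read from such rows. The count that rose was 4 as reported and 2 with the normal reference, which lost the calls of AT4G17340 and AT1G80760, and was 3 or 4 under the others. Without the 9 members whose span holds another locus, an alternative chosen after seeing the data, 8 fell and 3 rose. The median change ranged from -0.31 to -0.17, its main value being -0.26. The NIP sum changed from a log2 ratio of 7.12 with NIP2;1 to -0.34 without it, also chosen after seeing the data. Rescaling to an equal sum or an equal upper quartile shifted log2 ratios by 0.0086 and -0.01. Shifts of that size could not reverse a called gene, the smallest called change being a log2 ratio of 0.43, that of TIP2;2. A pseudocount of 0.1 or 5 FPKM, added to both values, cannot change a direction, so neither setting tests the directions. No paired analysis was possible because the table holds 1 pooled value per condition, and for the same reason no library could be left out. Depth is unknown, so genes at or near 0 FPKM cannot be called absent.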
